A study of Mus musculus with 12 samples.

Results

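Type I interferon-stimulated antiviral genes were followed over 12 Affymetrix arrays of mouse spleen RNA. The set is a list of 38 genes. A gene was measured through probe sets annotated with its symbol and no other, and with more than 1 such probe set the one with the highest mean was to be taken. This gave 36 genes of the 19938 in the table, each with 1 probe set. Isg15, whose probe set also carries the symbol Gm9706, and Ifi44 were not analysed here. Values are log2 expression levels per probe set, so a difference of 1 is a 2-fold difference.

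The study set C57BL/6 mice with septic peritonitis beside untreated mice, with 4 arrays, given as biological replicates, for each of 3 labels. Animals labelled septic had colon ascendens stent peritonitis (CASP), an operation in which a small tube placed in the colon wall releases gut contents, bacteria included, into the peritoneal cavity. Arrays M5 to M8 carry the label septic TLR-deficient (replicates 1 to 4), and their titles read Trifxmyd, after Trif and MyD88, the adaptors through which Toll-like receptors (TLRs) signal. M9 to M12 carry the label septic wildtype (replicates 1 to 4) and M13 to M16 the label untreated wildtype (replicates 1 to 4), with a time of 0 h in the titles. Untreated TLR-deficient animals were not analysed here, and the labels give neither age, sex, the alleles of the mutants nor the time between operation and sampling.

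Type I interferons are secreted by cells that sense microbial nucleic acids or, through TLRs, bacterial products. They bind a receptor on the same or neighbouring cells, whose kinases activate transcription factors. These bind the interferon-stimulated response element (ISRE) in the promoters of a large set of genes. The products of these genes sense viral RNA, block entry, replication and budding of viruses, tag proteins with ubiquitin, ISG15 or ADP-ribose, and dampen the response again. In spleen, macrophages, dendritic cells and lymphocytes all can take part.

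The ISRE core was searched for as the letters GAAA, any 2 bases and GAAA on both strands of RefSeq promoter windows of GRCm38.p6, from 250 bases before to 50 after each gene's start. Of the 36 measured genes 27 had a window, and 10 of these (37.0%) held the letters, against 1079 of all 27025 genes with a window (3.99%). Matches may overlap each other. A match describes the letters and is not a binding site established here. The following stretches show the matches of measured genes that lie before the start, read 5′ to 3′ on the strand of the gene, with the match in capitals (TTTC, any 2 bases and TTTC is the same core on the other strand).
Ddx60 (chr8:61928009-61928086, + strand, 78 bases): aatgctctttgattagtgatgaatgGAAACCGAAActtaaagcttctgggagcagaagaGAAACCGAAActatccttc
Bst2 (chr8:71537562-71537627, - strand, 66 bases): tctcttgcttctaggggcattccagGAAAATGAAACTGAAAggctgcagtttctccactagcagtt
Rsad2 (chr12:26456538-26456597, - strand, 60 bases): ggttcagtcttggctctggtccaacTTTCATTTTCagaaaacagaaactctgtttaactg
Lgals9 (chr11:78984945-78985004, - strand, 60 bases): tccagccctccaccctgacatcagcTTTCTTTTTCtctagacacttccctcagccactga
Trim30a (chr7:104465195-104465254, - strand, 60 bases): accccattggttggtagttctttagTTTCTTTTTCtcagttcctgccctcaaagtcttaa

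Ddx60 held the same 10 letters at both of its matches, and in Bst2 2 matches overlapped by 4 bases. Lgals9 and another window of Trim30a also held a match just after the start, which is not shown. A further 5 genes held the core only just after the start. They are shown as stretches of 30 bases because they include both genes that separated the arrays described below, such as Ifih1, and genes that did not, such as Trim34a.
Ifih1 (chr2:62646206-62646235, - strand, 30 bases): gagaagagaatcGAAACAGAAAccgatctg
Ifitm3 (chr7:141010715-141010744, - strand, 30 bases): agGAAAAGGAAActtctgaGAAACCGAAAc
Eif2ak2 (chr17:78882535-78882564, - strand, 30 bases): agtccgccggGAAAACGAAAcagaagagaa
Trim21 (chr7:102565447-102565476, - strand, 30 bases): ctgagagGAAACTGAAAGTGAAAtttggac
Trim34a (chr7:104244457-104244486, + strand, 30 bases): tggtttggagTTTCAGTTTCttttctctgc

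The other core searched, the gamma-activated site TTCNNNGAA, reads the same on both strands. It was in the windows of 6 of the 27 measured genes (22.2%) and of 2582 of all 27025 (9.55%). Dhx58, Zbp1, Usp18, Mx2, Rtp4, Parp9, Parp14, Ifi27l2a and Tor3a had no window in the table. In the RefSeq gene order Rsad2 and Cmpk2 stand side by side on chromosome 12, and Parp14, Dtx3l and Parp9 follow one another on chromosome 16.

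Features of the whole series touch each result. The array M10, septic wildtype replicate 2, had a compressed range, with a standard deviation over all genes of 1.21 against 1.91 to 2.07 on the other 11 arrays, so that results are given with and without it. Myd88 stood at 9.64, 9.42, 9.44 and 9.75 on M5, M6, M7 and M16, at 8.62, 8.70, 6.48 and 8.78 on M8, M9, M10 and M11, and at 9.20, 8.87, 9.14 and 9.32 on M12, M13, M14 and M15. The arrays labelled TLR-deficient, M5 to M8, overlapped with the others, and M5 and M16 were the highest. Ticam1, which encodes Trif, was at 5.93, 5.80, 5.89 and 5.92 on M5 to M8, at 5.76 on M16 and 5.64 on M10, and between 6.04 and 6.57 on the other 6 arrays, so that M16 and M10 lay below the TLR-deficient label. Whether these probe sets lie in the deleted parts is not known. Xist, expressed from the inactive X chromosome of female cells, was at 3.73 to 4.33 on M12 to M15 and between 8.94 and 10.94 on the other 8 arrays, which splits the septic wildtype and the untreated label. Group names below are therefore those of the labels, not conditions read from the data. Besides the labels, values are given for 3 blocks of title numbers, M5 to M7 with M16, M8 to M11, and M12 to M15. The blocks were drawn up with earlier results of these data known, so they carry no test and give no array a condition.

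Across the set, the interferon-stimulated genes were low on M8 to M11 and high on M12, M14, M15, M5, M6 and M16. The median over the 36 genes of the log2 value minus the gene's own mean was -0.49, -0.63, -2.22 and -0.85 on M8, M9, M10 and M11. It was 0.74, 0.64, -0.42 and 0.67 on M5, M6, M7 and M16, and 0.79, 0.11, 0.80 and 1.05 on M12, M13, M14 and M15. In bulk spleen RNA, fewer cells of a type and less RNA per cell cannot be told apart. The same median over all genes stayed between -0.09 and 0.07 on every array. M13 thus stood between the low and the high arrays, and M7 was close to M8: M7 was the lowest of its block for 36 of 36 genes (27.2% of all genes) and M13 the lowest of its block for 34 of 36 (21.4% of all genes), the exceptions being Trim34a and Ifi27l2a. M10 was the lowest of the 12 arrays for 31 of 36 genes (35.3% of all genes), M11 for 3 of them, and M15 was the highest for 14 (5.45% of all genes).

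**Figure D1:**
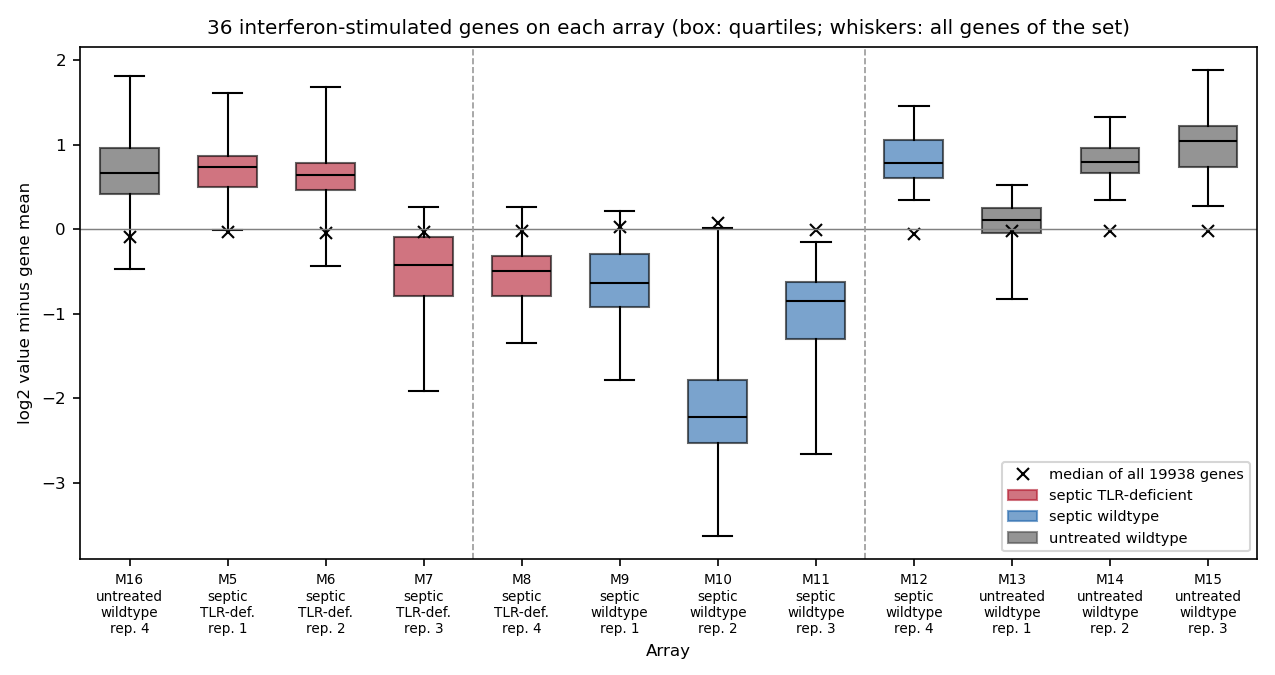
Distribution of the 36 interferon-stimulated genes on each array, as log2 value minus the mean of the gene over 12 arrays (vertical axis), with arrays in title order from M16 and M5 to M15 and coloured by label. Boxes show quartiles, whiskers reach the lowest and highest gene, and crosses mark the median of all 19938 genes; the boxes of M8 to M11 lie below 0 and those of M5, M6, M16, M12, M14 and M15 above it.

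Values on all 4 arrays of M8 to M11 were below those of the other 8 arrays for 17 of the 36 genes, against 2.12% of all genes (423 of 19938), and above them for 0 of 36, against 1.18% of all genes. Without M10 the count was 17 (2.63% of all genes), and with each gene's rank within its array in place of its log2 value it was 21 (2.06%). For 31 of 36 genes M8 to M11 lay below M12 to M15 (5.09% of all genes), and for 18 below M5 to M7 with M16 (5.22%). Xist was high on M8 to M11 and low on M12 to M15, so sex cannot be told apart in the count of 31. Leaving out M7, which was the lowest of its block for each of the 36 genes, can only raise the count of 17. M8 to M11 then lay below the other 7 arrays for 29 genes (3.04% of all genes), which is a description and no support. The arrays M5 to M7 with M16 and M12 to M15 overlapped for 35 of 36 genes. The exception was Trim34a, lower on M5 to M7 with M16, an order that 7.10% of all genes had. Of the 17 genes just described 11 had a promoter window and 4 of these held the ISRE core, and of the other 19 genes 16 had a window and 6 held it.

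**Figure D2:**
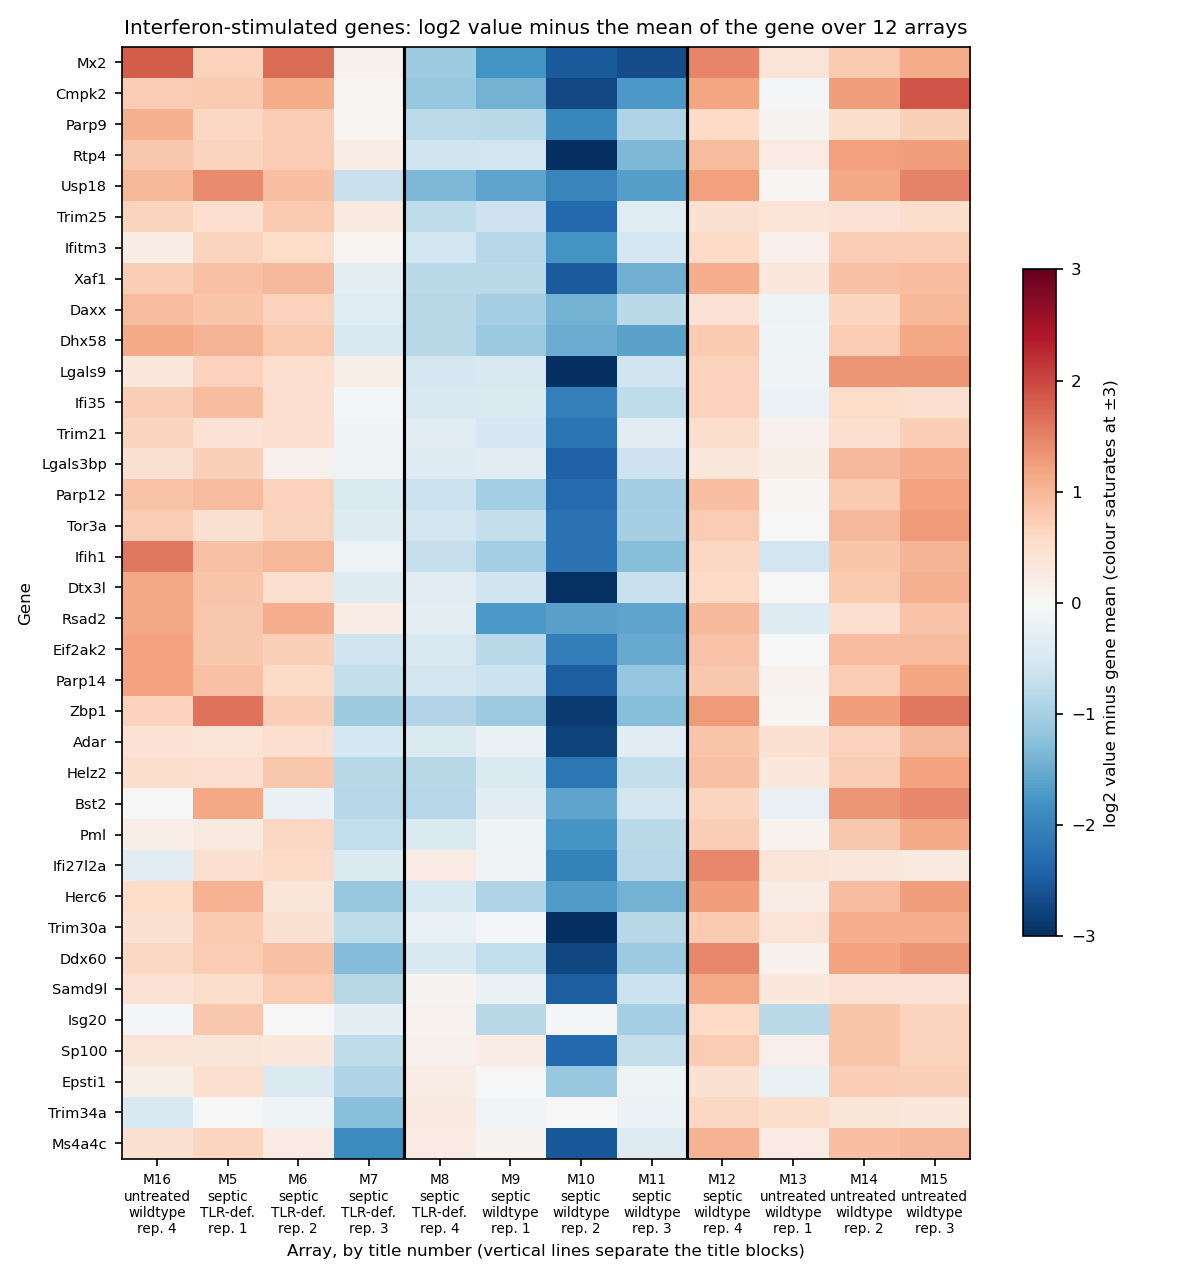
Log2 value minus the mean of the gene over 12 arrays for each of the 36 genes (rows) on each array (columns, with label and replicate), in colours that saturate at a difference of 3. Rows are ordered by the gap between M8 to M11 and the other arrays, and lines separate the title blocks; the upper 17 rows are those in which M8 to M11 lie below the other 8 arrays, and M10 is the darkest column in most rows.

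The septic labels cut across this pattern, since each held arrays inside and outside M8 to M11, whereas the 4 untreated arrays were all outside it. Within the arrays labelled septic wildtype, M12 was above the other 3 for 36 of 36 genes (16.2% of all genes). Within those labelled septic TLR-deficient, M8 was below the other 3 for 19 of 36 (26.2% of all genes). Within the untreated label M16 was above the other 3 for 10 of 36 (25.8% of all genes) and below them for 3 (37.1%), and it lay within the range of M5 to M7 for 23 genes (52.5% of all genes). M12 lay within the range of M13 to M15 for 26 genes (41.6% of all genes).

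Among the sensors of viral nucleic acid, Ifih1, the MDA5 receptor of long double-stranded RNA, stood at 9.57, 9.70, 8.55 and 10.28 on M5, M6, M7 and M16, at 7.99, 7.67, 6.47 and 7.41 on M8, M9, M10 and M11, and at 9.33, 8.12, 9.53 and 9.72 on M12, M13, M14 and M15. The 4 values of M8 to M11 were the 4 lowest, with M13 just above them. Dhx58, the LGP2 helicase that tunes MDA5 and RIG-I signalling, stood at 9.16, 8.93, 7.68 and 9.28 on M5, M6, M7 and M16, at 7.31, 7.03, 6.65 and 6.55 on M8, M9, M10 and M11, and at 8.94, 8.02, 8.92 and 9.31 on M12, M13, M14 and M15. It was lowest on M11 and, like Ifih1, did not overlap between M8 to M11 and the other arrays. Zbp1, which binds left-handed nucleic acid and can start necroptosis, stood at 10.35, 9.47, 7.66 and 9.42 on M5, M6, M7 and M16, at 7.85, 7.64, 5.86 and 7.46 on M8, M9, M10 and M11, and at 10.02, 8.78, 9.98 and 10.32 on M12, M13, M14 and M15. Its value on M7 was below that of M8, so these groups of arrays overlapped. Eif2ak2, the kinase PKR that stops translation on double-stranded RNA, was at 6.24 to 7.83 on M8 to M11, 7.71 on M7 and 8.28 to 9.26 on M12 to M15. Ddx60, a helicase linked to RNA sensing, was at 4.78 to 7.05 on M8 to M11 and 7.65 to 8.96 on M12 to M15, and M7, at 6.21, was lower than M8, M9 and M11. Helz2, a helicase and nuclear receptor coactivator, ran alike, at 6.87 to 8.59, 9.35 to 10.24 and, on M7, 8.20.

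The ISG15 system couples the ubiquitin-like protein ISG15 to other proteins. Usp18, which removes ISG15 and blocks the interferon receptor as a brake on the response, stood at 10.18, 9.66, 8.07 and 9.75 on M5, M6, M7 and M16, at 7.40, 7.16, 6.77 and 7.10 on M8, M9, M10 and M11, and at 9.99, 8.80, 9.91 and 10.24 on M12, M13, M14 and M15. Its 4 values on M8 to M11 were close together and below all the others, so that the septic wildtype arrays M9, M10 and M11 were separated from M12, which carries the same label. Herc6, the ligase that attaches ISG15 in mice, stood at 9.83, 9.14, 7.65 and 9.34 on M5, M6, M7 and M16, at 8.34, 7.89, 7.09 and 7.38 on M8, M9, M10 and M11, and at 10.04, 9.002, 9.72 and 10.04 on M12, M13, M14 and M15. M7 fell inside the range of M8 to M11 for Herc6, and the highest 4 values were those of M12, M15, M5 and M14.

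Of the effectors, Mx2, Cmpk2 and Rtp4 were among the 5 genes with the widest spans over the arrays. Mx2, a dynamin-like GTPase that restricts viruses, stood at 7.70, 8.70, 7.14 and 8.83 on M5, M6, M7 and M16, at 5.94, 5.23, 4.49 and 4.35 on M8, M9, M10 and M11, and at 8.48, 7.41, 7.80 and 8.12 on M12, M13, M14 and M15. Here M11 and not M10 was the lowest, and the gap of 1.20 between M8 and the lowest of the other 8 arrays was the widest in the set. Cmpk2, a mitochondrial nucleotide kinase encoded next to Rsad2, stood at 9.01, 9.36, 8.28 and 8.99 on M5, M6, M7 and M16, at 7.09, 6.81, 5.53 and 6.52 on M8, M9, M10 and M11, and at 9.42, 8.21, 9.48 and 10.12 on M12, M13, M14 and M15, a gap of 1.11. Rsad2, the radical-SAM enzyme viperin that makes a chain-terminating nucleotide, stood at 10.78, 11.07, 10.20 and 11.13 on M5, M6, M7 and M16, at 9.67, 8.24, 8.34 and 8.39 on M8, M9, M10 and M11, and at 10.93, 9.57, 10.47 and 10.83 on M12, M13, M14 and M15. Although the neighbours were low on the same 4 arrays, Rsad2 did not separate them, because M13 at 9.57 was below M8 at 9.67. Rtp4, a receptor chaperone induced by interferon, stood at 9.95, 10.06, 9.51 and 10.10 on M5, M6, M7 and M16, at 8.69, 8.75, 5.67 and 7.95 on M8, M9, M10 and M11, and at 10.23, 9.53, 10.52 and 10.56 on M12, M13, M14 and M15. It had the widest span of the 36 genes, 4.89, but this rested on M10: over the other 11 arrays the span was 2.61, while that of Mx2 was 4.48 with and without M10.

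**Figure D3:**
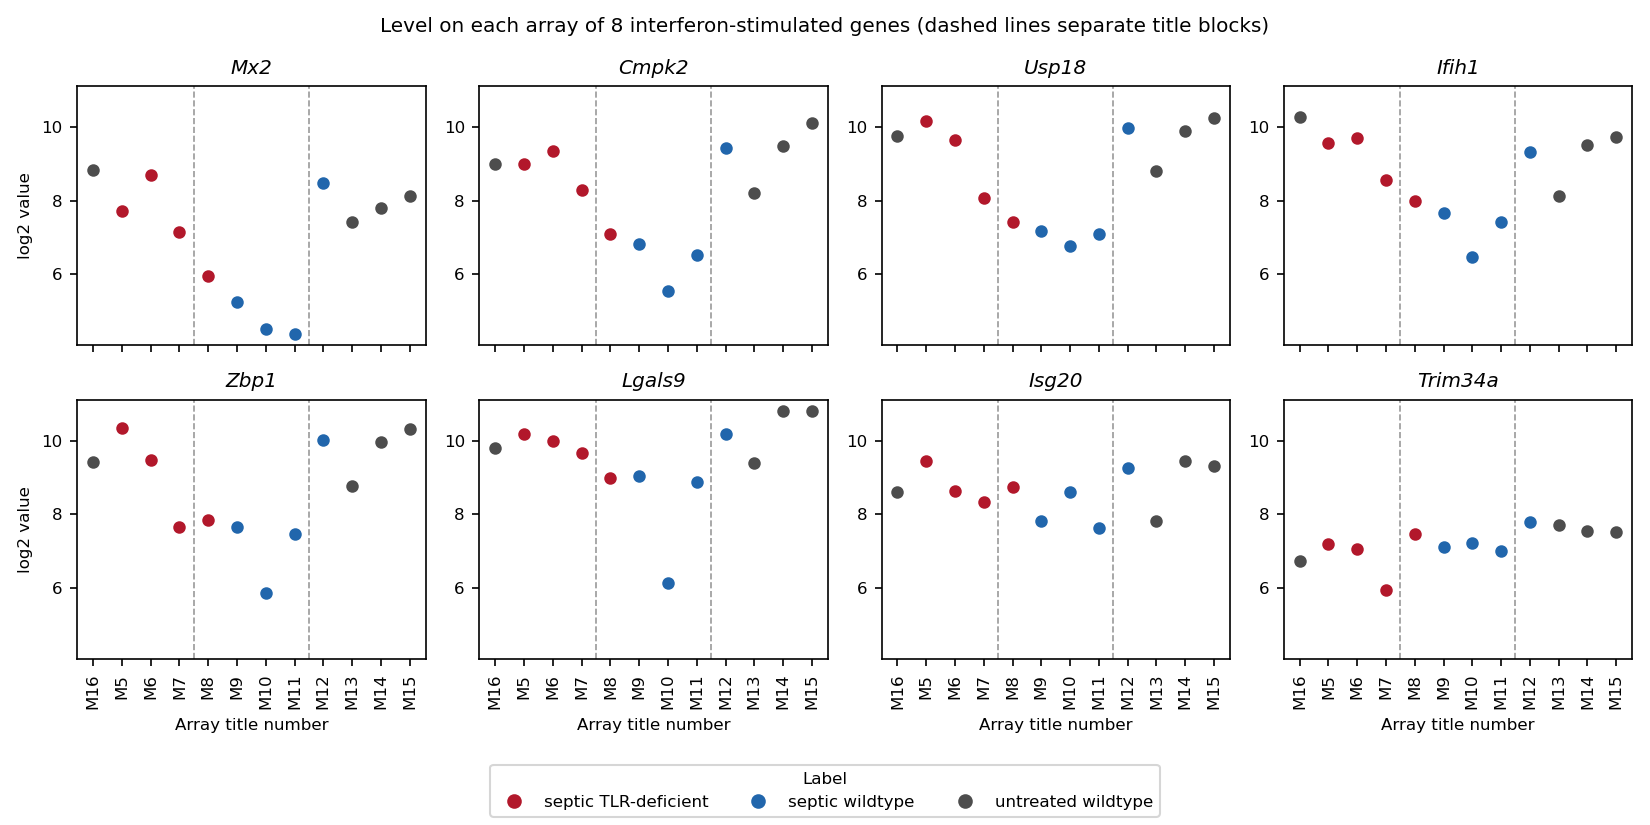
Log2 values (vertical axis) of 8 genes on each array, in title order and coloured by label; dashed lines separate the title blocks and each point is 1 array. Mx2, Cmpk2, Usp18, Ifih1 and Lgals9 have their 4 lowest values on M8 to M11, Zbp1 overlaps through M7, and Isg20 and Trim34a do not follow this order.

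Other restriction factors act at membranes or on RNA. Ifitm3, which hinders fusion of viruses with endosomes, stood at 11.42, 11.30, 10.80 and 10.97 on M5, M6, M7 and M16, at 10.18, 9.91, 8.97 and 10.22 on M8, M9, M10 and M11, and at 11.36, 10.89, 11.49 and 11.52 on M12, M13, M14 and M15, with M8 to M11 below the rest. Bst2, the tetherin that holds budding virions at the cell surface, stood at 9.94, 8.59, 7.92 and 8.80 on M5, M6, M7 and M16, at 7.92, 8.47, 7.19 and 8.22 on M8, M9, M10 and M11, and at 9.43, 8.56, 10.11 and 10.22 on M12, M13, M14 and M15. It was higher on M14, M15 and M5 than elsewhere, and M6, M7, M13 and M16 overlapped with M8 to M11 or lay close to them. Adar, which edits adenosine in double-stranded RNA, was at 5.93 to 8.49 on M8 to M11 and 9.15 to 9.67 on M12 to M15, and without M10 its span over the arrays was 1.49. Samd9l, a restriction factor of poxviruses, was at 6.43 to 8.997 and 9.23 to 10.05 on these arrays and at 8.06 on M7.

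Of the ubiquitin ligases and ADP-ribosyltransferases, Trim25, the ligase that acts on RIG-I signalling, was at 6.56 to 8.52 on M8 to M11, at 9.15 to 9.68 on M5 to M7 with M16 and at 9.30 to 9.42 on M12 to M15. Trim21, a cytosolic antibody receptor, was at 6.07 to 7.92 on M8 to M11 and at 8.15 or more on the other arrays. Trim30a, which dampens NF-kappaB signalling and has close copies in its gene cluster, so that its signal may be shared, stood at 11.27, 10.92, 9.70 and 10.93 on M5, M6, M7 and M16, at 10.28, 10.41, 7.30 and 9.64 on M8, M9, M10 and M11, and at 11.26, 10.89, 11.56 and 11.56 on M12, M13, M14 and M15, so M7 was below M8 and M9. Among the 3 neighbours on chromosome 16, Parp9, which forms a complex with the ligase Dtx3l, stood at 9.31, 9.44, 8.74 and 9.74 on M5, M6, M7 and M16, at 7.90, 7.87, 6.73 and 7.78 on M8, M9, M10 and M11, and at 9.29, 8.77, 9.21 and 9.40 on M12, M13, M14 and M15, with a gap of 0.84 between M8 to M11 and the rest. Dtx3l stood at 9.02, 8.67, 7.80 and 9.34 on M5, M6, M7 and M16, at 7.88, 7.58, 5.23 and 7.53 on M8, M9, M10 and M11, and at 8.79, 8.18, 8.98 and 9.26 on M12, M13, M14 and M15, where M7 and M8 were nearly level. Parp14, a further ADP-ribosyltransferase, was at 6.78 to 8.72 on M8 to M11, at 8.54 on M7 and at 10.47, its highest value, on M16. Parp12, a related enzyme that binds viral RNA, was at 6.08 to 7.74 on M8 to M11 and at 8.43 to 9.58 on M12 to M15.

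Pml, Sp100 and Daxx form nuclear bodies that silence incoming viral DNA. Daxx, a histone chaperone, stood at 9.07, 8.93, 7.88 and 9.20 on M5, M6, M7 and M16, at 7.42, 7.26, 6.83 and 7.44 on M8, M9, M10 and M11, and at 8.68, 8.10, 8.89 and 9.23 on M12, M13, M14 and M15 and separated M8 to M11 from the rest. Pml, the scaffold of the bodies, stood at 9.72, 10.08, 8.70 and 9.66 on M5, M6, M7 and M16, at 9.02, 9.31, 7.67 and 8.64 on M8, M9, M10 and M11, and at 10.20, 9.55, 10.26 and 10.59 on M12, M13, M14 and M15, so that M7 was inside the range of M8 to M11. Sp100 had the widest span of these 3 genes and stood at 10.23, 10.18, 9.11 and 10.26 on M5, M6, M7 and M16, at 9.99, 10.09, 7.53 and 9.14 on M8, M9, M10 and M11, and at 10.62, 10.01, 10.69 and 10.54 on M12, M13, M14 and M15. Apart from the low values on M10, M7 and M11 its arrays lay close together, and M9 was above M13.

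Among the remaining genes, Xaf1, a partner of apoptosis inhibitors, was at 5.58 to 7.26 on M8 to M11, with a gap of 0.55 to the other arrays. Lgals9, the lectin galectin-9, stood at 10.19, 10.004, 9.68 and 9.81 on M5, M6, M7 and M16, at 8.99, 9.05, 6.12 and 8.89 on M8, M9, M10 and M11, and at 10.19, 9.39, 10.83 and 10.81 on M12, M13, M14 and M15. Its span was 4.70 with M10 and 1.93 over the other 11 arrays. Lgals3bp, a secreted glycoprotein that binds galectins, was at 7.87 to 9.97 on M8 to M11 and at 10.47 to 11.40 on M12 to M15. Ifi35 and Tor3a also separated M8 to M11, at 6.22 to 7.85 and 7.22 to 8.88, from the other 8 arrays, whose lowest values were 8.10 and 9.05.

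A few genes did not follow the common order. Trim34a, of the same gene cluster as Trim30a and with the ISRE core after its start, stood at 7.18, 7.05, 5.93 and 6.72 on M5, M6, M7 and M16, at 7.45, 7.11, 7.21 and 7.004 on M8, M9, M10 and M11, and at 7.80, 7.71, 7.55 and 7.52 on M12, M13, M14 and M15. Its lowest value was on M7, and its values on M8 to M11 were below those of M12 to M15 and overlapped those of M5 and M6. Isg20, an exonuclease that degrades single-stranded RNA, stood at 9.46, 8.64, 8.34 and 8.61 on M5, M6, M7 and M16, at 8.75, 7.81, 8.61 and 7.61 on M8, M9, M10 and M11, and at 9.25, 7.82, 9.46 and 9.30 on M12, M13, M14 and M15, and M10 was among its middle values. Epsti1 stood at 8.05, 7.13, 6.67 and 7.74 on M5, M6, M7 and M16, at 7.79, 7.59, 6.44 and 7.42 on M8, M9, M10 and M11, and at 8.02, 7.37, 8.31 and 8.28 on M12, M13, M14 and M15, with M6 and M7 below M8, M9 and M11. Ms4a4c, a membrane protein of the Ms4a family, was at 8.13 on M7 and 7.51 on M10 and between 9.66 and 11.09 on the other 10 arrays. Ifi27l2a, of a small family of mitochondrial proteins, was highest on M12, at 9.95, and its values on M8 and M9, 8.76 and 8.41, were above those of M7 and M16, 8.12 and 8.21.

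By label, septic against untreated wildtype asks what peritonitis changes where TLR signalling is intact. Xist was high on M9 to M11 and M16 and low on M12 to M15. Sex thus differed in part between these labels and was not separated from the operation. The septic wildtype mean was the lower for 36 of 36 genes (for 44.9% of all genes; 36 and 44.7% without M10), with a median difference of -1.43 against 0.07 over all genes. Mx2 averaged 5.64 ± 1.93 on the arrays labelled septic wildtype and 8.04 ± 0.60 on those labelled untreated (SD over 4 arrays for both). In limma over all genes this was a difference of -2.40 with an SE of 0.80 (adjusted p = 0.439). Without M10 it was -2.02. The differences were -2.13 for Cmpk2 (-1.61 without M10), -2.02 for Rtp4 (-1.20), -1.92 for Usp18 (-1.59), -1.88 for Zbp1 (-1.25) and -1.65 for Lgals9 (-0.84). The SE of these 5 differences ranged from 0.67 to 0.78. Ifih1, Parp14, Dtx3l and Eif2ak2 differed by -1.69, -1.69, -1.66 and -1.64, and without M10 by -1.28, -1.15, -0.97 and -1.24. The smallest difference was that of Trim34a, -0.10.

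None of the 36 genes passed an adjusted p of 0.05 in limma, as 0 of all 19938 genes did (0.0%), and 28 of the 36 had an unadjusted p under 0.05 (8.81% of all genes). This count depends on single arrays: it was 12 without M10 (5.45% of all genes), 17 without M11 (15.2%), and 18 and 16 without the untreated arrays M14 (4.25%) and M15 (3.98%). It rose to 33 without M12 (16% of all genes). The labelled groups overlapped for each of the 36 genes, since M12 was above at least 1 untreated array; of all genes 2.74% had all septic wildtype arrays below all untreated ones. The median difference was -0.92 without M10, and -1.94 without M12. By role the medians were -1.60 for the 7 sensors and signalling genes, -1.67 for Usp18 and Herc6, -1.26 for the 9 effectors, -1.47 for the 8 ligases and ADP-ribosyltransferases, -1.06 for the 3 nuclear body genes and -1.43 for the other 7. Without M10 they were -1.24, -1.34, -0.72, -0.88, -0.63 and -0.84 in the same order.

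Between the septic labels the question is which part of the response needs TLR signalling. As untreated TLR-deficient animals were not analysed here, a baseline effect of the genotype cannot be told apart from it. The TLR-deficient mean was the higher for 35 of 36 genes (for 43.9% of all genes), the exception being Trim34a at -0.38. The median difference was 0.86 against -0.06 over all genes. Mx2 averaged 7.37 ± 1.15 (SD, n = 4) on the arrays labelled TLR-deficient, a difference of 1.73 (SE 0.80, adjusted p = 0.590 in limma), and of 1.35 without M10. The next largest differences were 1.45 for Rsad2 (1.24 without M10), 1.40 for Rtp4 (0.57), 1.36 for Cmpk2 (0.85), 1.23 for Ifih1 (0.82) and 1.15 for Lgals9 (0.34).

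None of the 36 passed in limma here either (0 of 19938 genes, 0.0%), and 1, Rsad2, had an unadjusted p under 0.05 (6.65% of all genes). That count was 12 without M8 (8.3% of all genes), 27 without M12 (11%) and 2 without M13 (5.75%). It was 0 without M5 (3.04%), M6 (4.51%), M9 (7.23%), M10 (6.2%) or M11 (10.4%). The median difference was 0.38 without M10, with 7 of the 36 genes, Epsti1, Bst2, Adar, Trim34a, Pml, Sp100 and Ms4a4c, then lower on the TLR-deficient label (52.0% of all genes), and 1.33 without M12. This comparison shares the septic wildtype arrays with the one before, so the opposite signs of their differences are not independent.

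**Figure D4:**
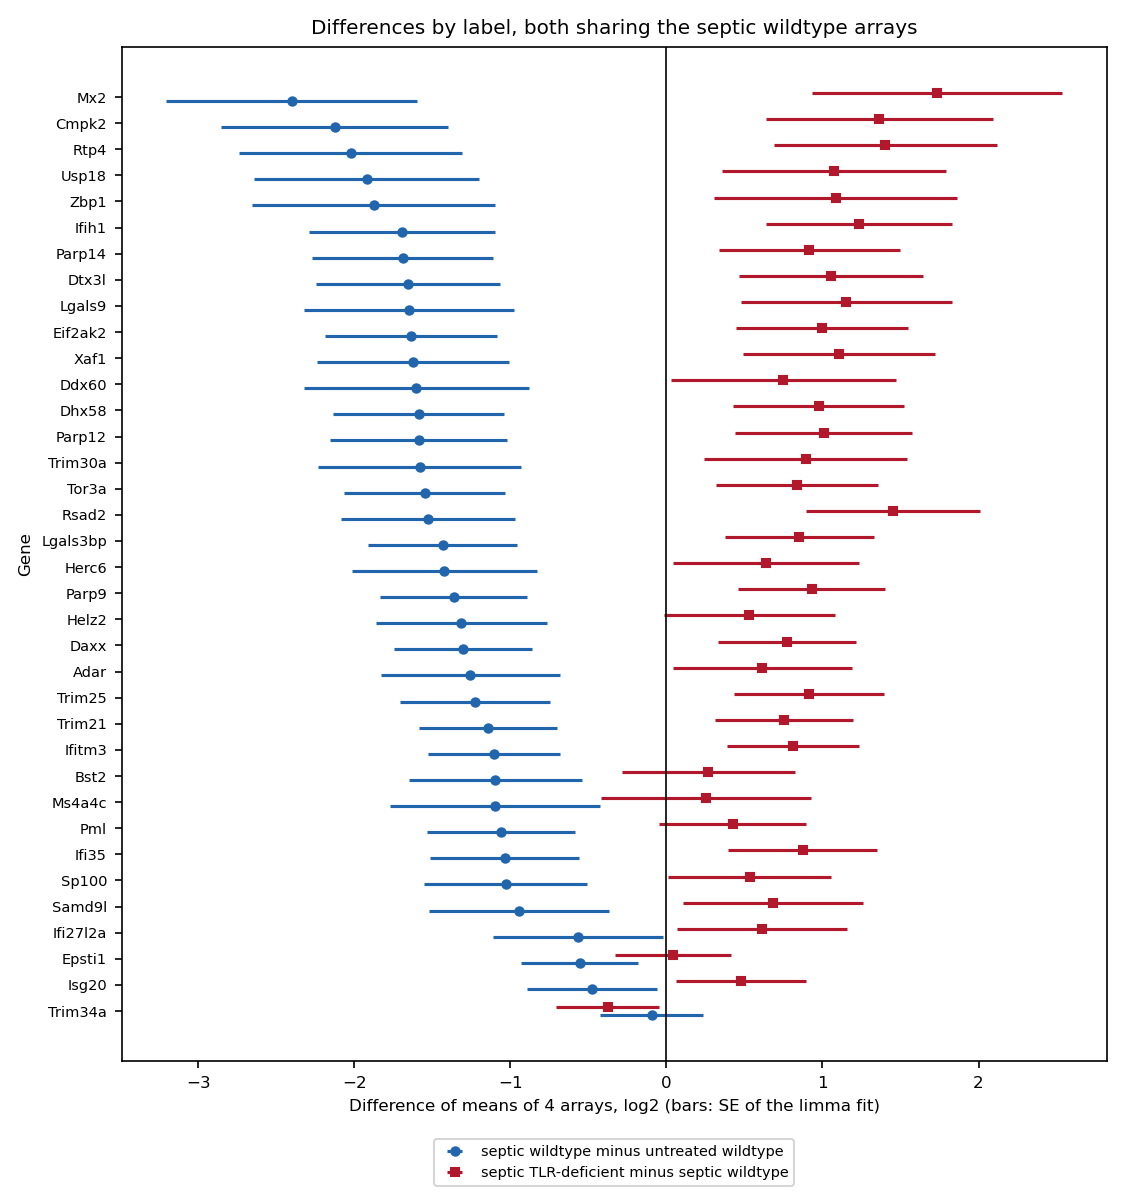
Differences of label means on the log2 scale (horizontal axis) for each of the 36 genes (vertical axis), with bars of 1 SE from the limma fit over 12 arrays. Septic wildtype minus untreated (circles) is below 0 for 36 genes and septic TLR-deficient minus septic wildtype (squares) is above 0 for 35; both use the same septic wildtype arrays, and no gene passed the adjusted threshold.

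Between the septic TLR-deficient and the untreated label both the genotype and the operation differ. Xist was also high on M5 to M8 and low on M13 to M15, so sex cannot be told apart from them. Means were lower on the TLR-deficient label for 34 of the 36 genes (48.1% of all genes), all but Isg20 and Ifi27l2a, with a median difference of -0.59 (0.01 over all genes), and of -0.35 without M8. Ddx60, Usp18 and Ms4a4c differed most, by -0.86, -0.85 and -0.84 (SE 0.72, 0.72 and 0.67). In limma 0 of the 36 passed the adjusted threshold (0.0% of all genes) and 0 had an unadjusted p under 0.05 (1.88% of all genes had). The lowest adjusted p among them in limma was 0.99996. M10 is in neither label but enters the spread that the fit shares. Without M10, 0 of the 36 had an unadjusted p under 0.05 in limma (6.14% of all genes had), and their lowest adjusted p was 0.796.

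Using replicates 1 to 3 of each label only, where labels and title blocks coincide, limma called 1 of the 36 genes between septic and untreated wildtype (9 genes in all, 0.0451%), 2 between the septic labels (141 genes, 0.707%) and 0 between septic TLR-deficient and untreated (33 genes, 0.166%). Mx2 was the gene called in the former, with a difference of -3.09 (adjusted p = 0.046 in limma). Mx2 and Rsad2 were those called between the septic labels, with differences of 3.16 and 2.36 (adjusted p = 0.0080 and 0.015 in limma). This choice was made with the values known, so its calls are a description and no independent support. On these arrays Xist was high for both septic labels and low for the untreated one. Sex therefore cannot be told apart in either comparison with untreated wildtype.

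The other genes of the interferon pathway, a list of 62 with 52 measured, gave 0 calls in any of the 3 comparisons, as did all genes (0.0%). Of the 8 ligands measured 0 separated M8 to M11 from the rest. Ifnb1 among them was at 3.5 to 4.5 over the arrays, below the median of every array, with its highest value on M10. Of the 8, 6 had lower means on the TLR-deficient than on the septic wildtype label, as 56.1% of all genes had. Most of the 8 were highest on the compressed M10. Without it Ifna2 and Ifne turned higher on the TLR-deficient label. Of 7 receptor and kinase genes 1, Jak2, was lower on M8 to M11 than on the other 8 arrays, while the receptor chain Ifnar1 was at 7.9 to 8.4 on the 11 arrays other than M10. Of 7 transcription factors 3 were lower on M8 to M11, namely the ISRE-binding factors Stat2 and Irf9 and the amplifier Irf7. Irf7 stood at 10.54, 10.06, 8.89 and 9.84 on M5, M6, M7 and M16, at 8.59, 8.68, 6.40 and 8.01 on M8, M9, M10 and M11, and at 10.82, 9.75, 10.94 and 11.10 on M12, M13, M14 and M15. Of 9 sensors and adaptors 1, the kinase Tbk1, and of 4 feedback inhibitors 2, Socs1 and Socs3, were lower on M8 to M11. Of 17 other interferon-stimulated genes 9 were, and of all genes 2.12%.

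Marker lists of 13 cell types (61 genes, 56 measured) were read on the same arrays, and their part in the results was not tested. Of the 56 genes 0 were below the other 8 arrays on M8 to M11 (2.12% of all genes) and 1 above (1.18% of all genes). At these shares so few genes cannot tell the markers from all genes. The mean log2 level of plasmacytoid dendritic cell markers, the cells known for the highest interferon output, was between 6.14 and 7.95 on M8 to M11, between 6.37 and 6.74 on M5 to M7 with M16, and between 7.36 and 7.83 on M12 to M15. Red pulp macrophage markers were between 7.96 and 9.82, 7.90 and 8.54, and 8.61 and 9.21 in the same order, and neutrophil markers between 6.53 and 7.01, 6.05 and 7.90, and 7.16 and 8.24. B cell markers were between 8.62 and 10.47, 8.79 and 9.24, and 9.94 and 10.29 in the same order of blocks. T cell markers were between 7.28 and 8.84, 7.39 and 7.69, and 7.89 and 8.86. For plasmacytoid dendritic cell, red pulp macrophage, B cell and T cell markers the lowest value of M8 to M11 was on M10. M8, M9 and M11 lay above M5 to M7 with M16 on each of these lists. For red pulp macrophage markers they were also above M12 to M15. Pancreatic acinar markers, of the tissue next to the spleen, were between 5.24 and 5.73 on M8 to M11 and between 4.91 and 6.77 on M5 to M7 with M16. On M12 to M15 they were between 5.05 and 9.61, so the blocks overlapped for these markers. Conventional dendritic cell markers were between 5.72 and 5.97 on M5 to M7 with M16. They were between 6.16 and 7.49 on M8 to M11 and between 6.89 and 7.49 on M12 to M15. Monocyte markers were between 6.51 and 6.80, 6.87 and 8.28, and 7.59 and 8.09 in the same order. On both lists M5 to M7 with M16 thus lay below all other arrays.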

How the data were processed

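Total RNA of mouse spleen was labelled with Affymetrix whole-transcript kits, per the labels' protocols, and read on 12 arrays. The deposited values are log2 expression levels per probe set, made by the authors with RMA in Affymetrix Expression Console, per the submitters' processing notes; RMA corrects background, normally equalises the distributions of arrays and summarises probes. The deposited arrays were not fully equalised: their medians ranged from 5.22 to 5.54. Values lie between 1.33 and 13.79. Of 35557 probe sets 21789 carried 1 symbol, 1621 several and 12147 none.

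Label means were compared in limma 3.58.1 (R 4.3.3) over all 12 arrays and 19938 genes, two-sided, with Benjamini-Hochberg adjustment and a threshold of 0.05. The fit was run on simulated data with independent normal noise in each gene. Those data held no compressed array, no correlation between genes and no labels that mix title blocks, so they do not test the fit under these features. Levels of different probe sets are not compared, and the number of arrays limits precision. The extraction protocol in the labels starts with wording on mutants of a gene that no sample label names and was not used for the design. Biological replicates are named in the labels without saying how animals were chosen. The p-values weigh differences of label means against the spread within the labels of these samples. That spread takes in the compressed M10 and labels that hold arrays of different title blocks.

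The genes, lists, blocks and tests were chosen with earlier results of these data known. Every gene of the set could be named; values on each array are given for the gene with the widest span in each role, for the narrowest spans and for others chosen after their values were seen. Differences are given for up to 10 genes per comparison and for Trim34a, chosen after its values were seen. Same-numbered replicates did not deviate together (correlations of -0.54 to 0.14), so they were not paired. Alternatives were a further quantile normalization, centring, a filter at percentile 25, the mean of probe sets, array weights, trended spread, only the groups compared, a replicate block, leaving out arrays and a threshold of 0.01. Figures used matplotlib 3.10.9 in Python 3.11.15.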

Additional observations from a re-analysis of the deposited data

Results flagged for a closer look

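In 5 of 108 sets of 4 arrays (36 genes by 3 labels) 1 array stood apart from the other 3 by Dixon's ratio; chance flags about 1 in 20 such sets. Usp18 was at 9.99 on septic wildtype replicate 4 against 6.77 to 7.16 on the other 3 septic wildtype arrays, and Rsad2 at 10.93 on the same array against 8.24 to 8.39. Ms4a4c was at 8.13 on septic TLR-deficient replicate 3 against 10.29 to 10.69 on the others. Ifi27l2a was at 8.21 on untreated replicate 4 against 8.80 to 8.90, and Samd9l at 9.23 on untreated replicate 1 against 9.33 on the others, a difference of little size.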

How the results depend on the processing

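The medians over the 36 genes and the largest differences named for each comparison (Trim34a not among them) kept their sign under the alternatives run. Other genes did not: between the septic labels Epsti1, Bst2, Adar, Pml, Sp100 and Ms4a4c turned lower without M10, and the median of the 3 nuclear body genes went from 0.53 to -0.0037. With replicates 1 to 3 only, Mx2, Rsad2, Ifih1, Ifi35, Parp9 and Trim25 turned higher on the septic TLR-deficient than on the untreated label. The median difference of the 36 genes ranged from -1.94 to -0.92 between septic and untreated wildtype, from 0.38 to 1.55 between the septic labels and from -0.80 to -0.35 between septic TLR-deficient and untreated. Under each alternative but 2 the counts of genes called stayed at 0: array weights called 1 gene between septic and untreated wildtype, and replicates 1 to 3 only called 9, 141 and 33 genes in the 3 comparisons, with 1, 2 and 0 of the 36 among them. With replicates 1 to 3 Mx2 differed by -3.09 and 3.16 and Rsad2 by 2.36; the cause was not tested. A further quantile normalization gave medians of -1.03, 0.60 and -0.50. The replicate block, on numbers that did not pair the arrays, left 0 genes called in each comparison and moved the count of the 36 at an unadjusted p under 0.05 between septic and untreated wildtype from 28 to 22. The count of genes lowest on M8 to M11, 17, was 17 without M10 and 21 on ranks, both alternatives added after seeing the data. No array has a technical repeat, so spread between animals and between arrays cannot be separated.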
